A study of Mus musculus with 3 samples.

Results

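The comparison described here sets the left ventricle of mice given both isoproterenol and INSL6 against the left ventricle of saline controls. It was made by subtracting the level of each gene on the Control array from its level on the Iso+Insl6 array, over every named gene at or above a background level of 4.16 on the higher of the 2 arrays. That rule kept 12420 of the 23740 genes with a symbol, out of 25206 probe sets on the array. Of the 12420, 167 belong to a set of genes typical of liver and are kept apart, and the other 12253 make up the rest.

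All mice were male C57BL/6N aged 8 to 12 weeks. Control mice carried an osmotic pump with vehicle (ammonium bicarbonate) and received saline. Iso+Insl6 mice received isoproterenol into the abdomen at 50 mg/kg per day for 11 days and INSL6 protein under the skin from a pump at 50 to 70 nmol/kg per day. The third array, Iso, came from mice with a vehicle pump and the same isoproterenol; it is outside this comparison and is given beside it because Iso+Insl6 differs from Control in both agents. The ventricles, collected on day 14, gave RNA that was pooled from 3 samples for every array. With 1 array per group no difference has an error between animals, no test of the conditions exists, and no p-value is given. Levels are RMA log2 values, where a difference of 1 is 2-fold. A gene was counted as higher or lower from 1.5-fold (0.585), which describes these arrays alone. In bulk RNA fewer cells of a type and less RNA per cell cannot be told apart.

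Isoproterenol is a synthetic agonist of the beta-adrenergic receptors, which raise cyclic AMP in heart muscle cells and make them beat faster and harder; given for days it enlarges and scars the heart. INSL6 is a secreted peptide of the insulin and relaxin family, known mainly from the testis. The gene groups below follow what such a heart is known for: its clock, stress hormones, muscle, matrix, vessels and fuel, and genes of other organs.

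On the Iso+Insl6 array 244 genes stood at least 1.5-fold above Control (1.96%) and 98 stood as far below it (0.789%). Genes of the liver set made up 111 of the 244, which is 66.5% of that set, and 0 of the 98 (0% of it). Outside that set 133 genes were higher (1.09%) and 98 lower (0.800%), and at 2-fold the counts were 38 and 27. The median difference outside the liver set was 0.00; 54.3% of those genes had identical values on both arrays and 88.1% lay within 0.2 of each other. On all 3 arrays 43.5% had the same value, so a list median of 0.00 says little by itself. The 2 arrays correlated at 0.995 (Pearson's r over the probe sets, as a description). The tissue label was met by heart muscle markers, all 8 of which lay above background on every array: the myosin Myh6 stood at 11.91, 11.91 and 11.93 and the calcium release channel Ryr2 at 11.06, 11.02 and 11.02 on Control, Iso and Iso+Insl6.

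**Figure D1:**
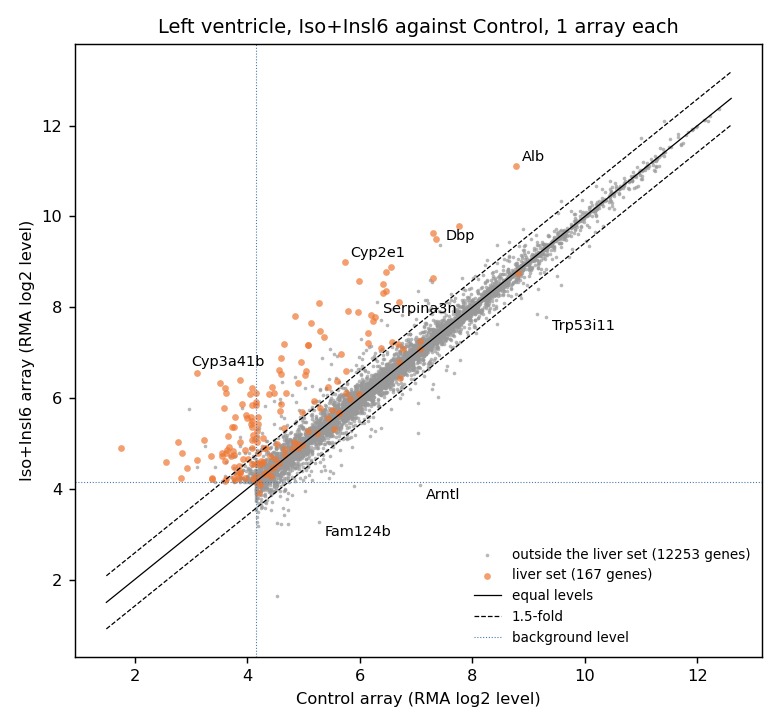
Each point is 1 gene, with its RMA log2 level on the Control array (x axis) and on the Iso+Insl6 array (y axis), 1 array each. The 167 genes of the liver set (orange) lie mostly above the upper 1.5-fold line (dashed), while the 12253 other genes (grey) lie mostly along the line of equal levels; dotted lines mark the background of 4.16.

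The genes of the liver set stood higher on the Iso+Insl6 array than on Control almost throughout. These genes encode what hepatocytes secrete into plasma and the enzymes they use for drugs, bile acids, amino acids and urea. Albumin, Alb, the main plasma protein, was listed at 8.78 on Control, 8.97 on Iso and 11.12 on Iso+Insl6. The Iso+Insl6 array was thus 5.06-fold above Control, while Iso lay close to Control. Cyp2e1, a cytochrome that oxidises ethanol and small solvents, stood at 5.74, 5.81 and 9.0, which is 9.58-fold above Control. Another cytochrome, Cyp3a41b, lay at 3.11 and 3.26 on Control and Iso, below background, and at 6.55 on Iso+Insl6, at least 5.24-fold higher. Here and below a fold against a level under background is a lower bound against 4.16, and the difference is that of the listed values. Probe sets of Cyp3a41b, Serpina1d and other members of close families may also read their near-identical copies.

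Among plasma proteins, Hamp, the iron hormone hepcidin, stood at 4.86, 5.45 and 7.80 on Control, Iso and Iso+Insl6. Serpina1d, a form of alpha-1 antitrypsin, stood at 5.99, 5.51 and 8.57, and the protease trap Mug1 at 4.66, 4.40 and 7.2. For Serpina6, which carries corticosteroids in blood, the levels were 3.61, 4.01 and 6.23. In each of these the Iso+Insl6 array was far above the other 2. Of the 35 carriers tested 27 passed 1.5-fold upward, and the median difference was 1.29. Among 10 serpins 9 were higher with a median of 1.77. Among 22 clotting and complement factors 15 were higher with a median of 0.86, prothrombin F2 by 1.58 and the fibrinogen chain Fgb by 1.42. Of 13 apolipoproteins 9 were higher, with Apoa2 at 2.33 and Apoa1 at 2.19, while Apoa4 had the value 4.97 on all 3 arrays.

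Liver enzymes ran the same way. The urate oxidase Uox was listed at 3.51, 3.57 and 6.34 on Control, Iso and Iso+Insl6, at least 4.53-fold above Control. Tyrosine aminotransferase, Tat, which glucocorticoids induce in liver, stood at 5.28, 5.04 and 8.09, which is 7.01-fold above Control. Its neighbour in tyrosine breakdown, Hpd, stood at 5.14, 5.31 and 7.66, and the tryptophan dioxygenase Tdo2 at 3.62, 3.82 and 6.12. Of 17 cytochromes tested 12 were higher, with a median of 1.41. Of 26 conjugating enzymes and carboxylesterases 16 were, with a median of 1.21. The corresponding counts were 15 of 29 for amino acid, urea and urate enzymes (median 0.64) and 8 of 15 for transporters and bile acid genes (median 0.59), where the fatty acid carrier Fabp1 differed by 2.52 and the bile acid transporter Slc10a1 by 1.96. Differences downward in the set were small, with Ces1b at -0.30 and Amacr at -0.27.

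How the set was filtered matters for these counts, since 60 of the 167 passed only through the Iso+Insl6 array and so had to stand higher there. At or above background on Control were 27 of the 35 carriers, 7 of the 10 serpins and 11 of the 13 apolipoproteins. The same held for 11 of the 22 clotting and complement factors, 9 of the 17 cytochromes and 15 of the 26 conjugating enzymes and carboxylesterases. It held for 19 of the 29 amino acid, urea and urate enzymes and 8 of the 15 transporters and bile acid genes. Chosen instead by the Iso array, which is not compared, 97 liver genes were at or above background, and 55 of them (56.7%) were at least 1.5-fold higher on Iso+Insl6 than on Control and 0 lower, with a median difference of 0.74. The same choice outside the set gave 117 of 12203 higher (0.959%) and 75 lower (0.615%). Over all 297 liver genes measured, at any level, 139 were higher and 1 lower, with a median of 0.49. Of the 297, 107 were at or above background on Control, 97 on Iso and 165 on Iso+Insl6. Their summed level, added on the linear scale and turned back to log2, was 12.89, 12.73 and 14.23. Kupffer and sinusoid genes, of liver cells other than hepatocytes, are outside the set. Of 14 measured 5 were tested, and 0 of these passed 1.5-fold. The 5 had a median level of 6.28 on each of the 3 arrays, and 1 of them, Lyve1, is also on the macrophage list. Clec4f, the Kupffer cell lectin, lay below background at 3.87 on all 3 arrays. This list therefore says little about those liver cells. Among 6 liver transcription factors tested, also outside the set, 0 passed, with Hnf4a, the main hepatocyte regulator, at 4.70, 4.66 and 5.13, Foxa3 at -0.31 and Prox1 at -0.30. The part of RNA from liver in any result below was not tested.

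Outside the liver set, the largest difference upward measured above background on both arrays was that of the clock gene Dbp. Ranked by listed values, which have no order below background, Upp2, a uridine phosphorylase, came before it, listed at 2.96, 3.34 and 5.76 on Control, Iso and Iso+Insl6. It was at least 3.03-fold above Control. Upp2, the cysteine dioxygenase Cdo1 (1.74), Acnat1 (1.68), the fatty acid ligase Slc27a2 (1.56) and the glutathione transferase Gsta3 (1.5) are also known as liver genes, though the set did not hold them; they were recognised after their values had been seen. When 28 such genes seen in the ranking were added to the liver set, 105 genes remained higher outside it. Klk1, a tissue kallikrein of glands and kidney, stood at 3.11, 2.22 and 4.49, and its bound against background was 1.26-fold.

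Others at the top of the ranking have known roles in skin, inflammation or the nervous system. Sprr1a, a protein of the cornified envelope that stressed heart muscle also makes, was listed at 3.91, 4.66 and 5.78, so the 3 arrays stood in the order Control, Iso, Iso+Insl6, and it was at least 3.07-fold above Control. Serpina3n, an inhibitor of serine proteases that inflamed tissue and liver make, stood in the same order at 6.30, 7.27 and 8.12, which is 3.53-fold above Control. Ahnak2, a large scaffold protein (4.47, 5.28 and 5.93), and the actin-associated Fam107a (4.59, 5.23 and 5.98) did too. The other 5 of the 15 largest by listed value were the clock genes Dbp, Per2, Per3, Ciart and Per1, described below. Further down, chosen after their values were seen, came the oxygenase Fmo2 (1.33), the retinal dehydrogenase Aldh1a1 (1.33), the purine oxidase Xdh (1.01) and the epoxide hydrolase Ephx1 (0.87). Pik3ip1, an inhibitor of PI3 kinase, was higher by 1.0 and the calcification inhibitor Mgp by 0.78.

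Downward, the clock activator Arntl had the largest listed difference and the largest bound. Fam124b was listed at 5.28 on Control, 3.00 on Iso and 3.26 on Iso+Insl6, at least 2.17-fold lower than Control. The airway secretory protein Scgb1a1 stood at 5.90, 5.96 and 4.06, so the Iso+Insl6 array alone was low, by at least 3.34-fold. Trp53i11, a p53-induced gene, stood at 9.31, 7.97 and 7.79, a 2.87-fold difference well above background. The tetraspanin Tspan18 stood at 7.4, 5.98 and 6.03, the cyclophilin Ppid at 7.67, 6.75 and 6.56, the desaturase Scd4 at 5.67, 4.53 and 4.53, and Scgb1c1 at 7.04, 6.00 and 5.89. In these 5 genes after Scgb1a1 the Control array was high and the other 2 lay close together. H2-Q7 (-1.51), the fatty acid binding protein Fabp7 (-1.38), Tmem171 (-1.29), Clvs1 (-1.22) and the heat shock gene Hspa1a (-1.19) lay below background on Iso+Insl6, and their bounds, from 1.30-fold for Tmem171 to 1.49-fold for H2-Q7, did not reach 1.5-fold. Egln3 and Apln, also among the 15 lowest, are described with the vessels.

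**Figure D2:**
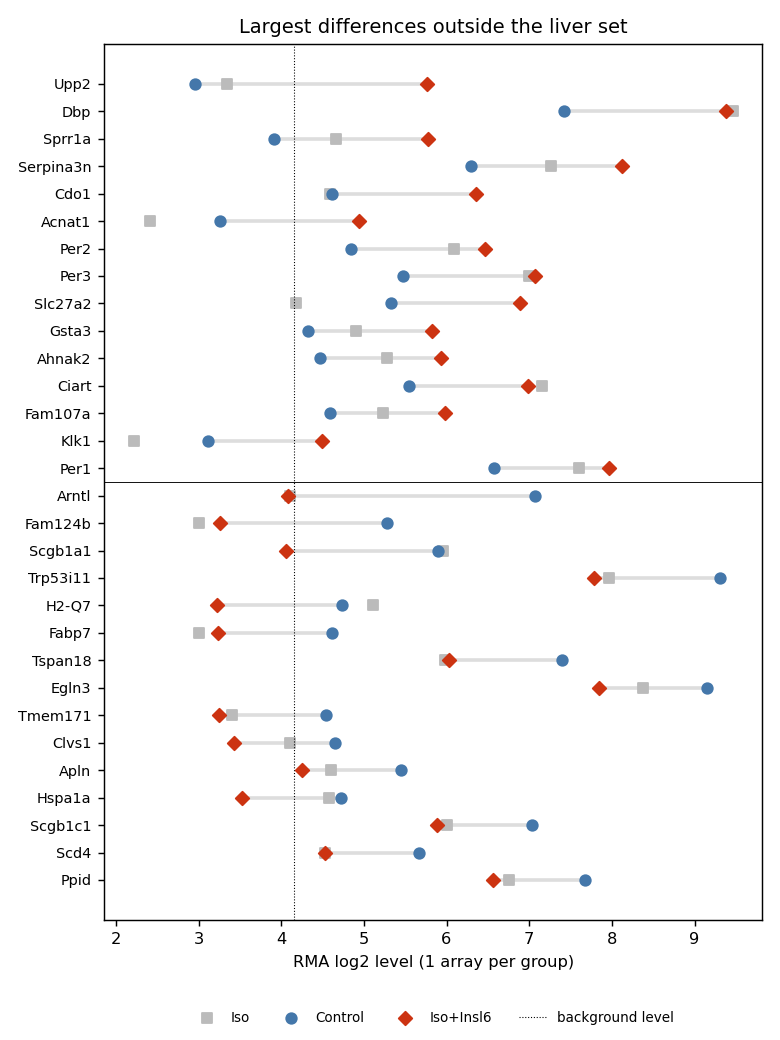
Levels (RMA log2, x axis) of the 15 genes with the largest listed differences upward (top) and downward (bottom) outside the liver set, on the Control (blue), Iso (grey) and Iso+Insl6 (red) arrays, 1 array each. Dbp, Per3, Arntl and Tspan18 have Iso and Iso+Insl6 close together, Cdo1 and Scgb1a1 have Iso close to Control, and Sprr1a and Serpina3n have Iso between; the dotted line is the background of 4.16.

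Genes of the circadian clock differed in both directions, activators downward and most repressors and output genes upward. The clock is a daily loop in which Arntl (BMAL1) with Clock or Npas2 switches on genes that carry an E-box, among them the Per, Cry and Nr1d repressors that switch the activators off again, and Dbp and its relatives act through D-boxes on further genes. Of 24 clock genes measured 23 were tested, 12 were at least 1.5-fold higher and 3 lower, against 1.09% and 0.800% of all genes outside the liver set. These lists were made with earlier results of these arrays known and are no independent evidence of a direction.

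Clock genes past 1.5-fold carried E-boxes or D-boxes in some of their promoters, and the stretches that hold them are shown because these are the elements through which the loop acts. The letters searched in the 250 bases before each start were the E-box CACGTG, the D-box TTATGTAA or TTACGTAA, the ROR element TAGGTCA or TGGGTCA, the glucocorticoid element ACANNNTGT and the cyclic AMP element TGACGTCA, on both strands. Sequences are RefSeq's (GRCm38.p6), read 5′ to 3′ along the gene, with the matched letters in capitals. Matches of different motifs overlapped 0 times in these genes.
Ciart (chr3:95882249-95882362, minus strand): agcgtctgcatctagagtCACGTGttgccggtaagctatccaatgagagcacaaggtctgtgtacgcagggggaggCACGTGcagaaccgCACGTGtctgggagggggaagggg
Per1 (chr11:69098765-69098806, plus strand): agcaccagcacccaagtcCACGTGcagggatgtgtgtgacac
Bhlhe41 (chr6:145865550-145865591, minus strand): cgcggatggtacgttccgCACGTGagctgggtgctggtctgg
Tef (chr15:81802528-81802569, plus strand): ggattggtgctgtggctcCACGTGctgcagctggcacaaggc
Klf15 (chr6:90462330-90462427, plus strand): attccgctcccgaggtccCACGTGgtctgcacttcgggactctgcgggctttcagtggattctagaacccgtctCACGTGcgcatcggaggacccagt
Per3 (chr4:151044798-151044888, minus strand): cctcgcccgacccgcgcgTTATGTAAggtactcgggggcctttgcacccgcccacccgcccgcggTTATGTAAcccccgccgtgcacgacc
Promoters were given for 13 of the 15 clock genes past 1.5-fold. An E-box lay in 5 of the 13 (Ciart, Per1, Bhlhe41, Tef and Klf15, all higher, as were 12 of the 15), against 6.86% of all genes with a promoter. A D-box lay in 1, Per3, against 1.10%, the cyclic AMP element in 1, Hlf, against 1.77%, and the ROR and glucocorticoid elements in 0, against 6.15% and 6.76%. A match is letters in a window of reference sequence and shows no binding in these hearts. The clock lists hold genes known to carry E-boxes, so the E-box share says little about these arrays. Clock genes short of 1.5-fold were not searched. Among the glucocorticoid induced genes past 1.5-fold, given below, an E-box lay in 3 of 8 promoters (Fkbp5, Klf15 and Per1).

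Among activators, Arntl stood at 7.07 on Control, 4.11 on Iso and 4.08 on Iso+Insl6, below background on both treated arrays and at least 7.52-fold lower than Control. Its partners were lower by less: Npas2 at 5.65, 4.43 and 4.86 (1.73-fold) and Clock at 9.16, 8.54 and 8.41 (1.68-fold). Of the ROR receptors, which switch Arntl on, Rora differed by 0.19 and Rorb by -0.26.

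Of 10 repressors 6 passed 1.5-fold, each of them upward, and the list had a median difference of 0.82. Per2 stood at 4.85, 6.09 and 6.46 on Control, Iso and Iso+Insl6 (3.05-fold above Control), Per3 at 5.47, 7.0 and 7.07 (3.03-fold), Per1 at 6.58, 7.60 and 7.96 (2.60-fold) and Ciart, a repressor of Arntl with Clock, at 5.55, 7.15 and 6.98 (2.69-fold). Control was the low array in all 4. Bhlhe41 (0.94) and Nr1d2 (0.70) were also higher, while Cry2 (0.34), Cry1 (0.04), Bhlhe40 (-0.01) and Nr1d1 (-0.28) did not reach 1.5-fold.

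Of 8 output genes 7 were tested and 6 were higher, while Lonrf3, at 3.26 on all 3 arrays, lay below background. Dbp, first of the D-box activators, stood at 7.42, 9.46 and 9.38, which is 3.89-fold above Control. Wee1, the kinase that delays mitosis, stood at 5.49, 6.77 and 6.76. Hlf (0.79) and Tef (0.67), relatives of Dbp, and Usp2 (0.64) and Klf15 (0.64) were higher by less. Nfil3, which opposes Dbp at D-boxes, was listed at 6.16, 5.58 and 5.58, a difference of -0.58 just short of the threshold, which it passed under quantile normalization and under centring. No label used here states the time of day of collection, so time of day and treatment cannot be told apart.

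**Figure D3:**
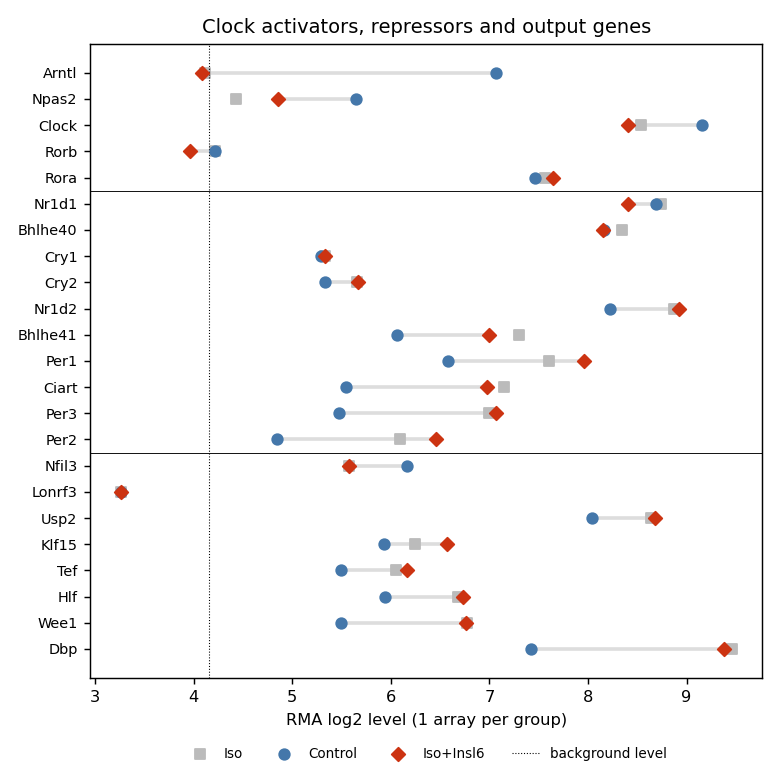
Levels (RMA log2, x axis) of 23 of the clock genes on the Control (blue), Iso (grey) and Iso+Insl6 (red) arrays, 1 array each, with activators at the top, repressors in the middle and output genes at the bottom. Arntl, Npas2 and Clock are highest on Control, while Per1, Per2, Per3, Ciart and Dbp are lowest there; the dotted line is the background of 4.16.

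Genes that the glucocorticoid receptor switches on were more often higher than lower. Of 22 tested 7 were at least 1.5-fold higher and 2 lower, beside 1.96% and 0.789% of all genes tested, with 16 positive and 6 negative differences and a median of 0.37. Zbtb16, a zinc finger repressor, stood at 7.25, 7.46 and 8.60 on Control, Iso and Iso+Insl6, so the last array alone was high, 2.55-fold above Control. Fkbp5, a chaperone that restrains the receptor, stood at 5.29, 5.17 and 6.2 (1.88-fold) in the same pattern. The metallothionein Mt2 stood at 7.28, 8.35 and 8.55 (2.41-fold), high on both treated arrays, and Tsc22d3, which mutes inflammatory signals, at 6.36, 6.81 and 7.03 (1.59-fold). The other 3 higher members are Per1 and Klf15, already counted with the clock, and Tat, of the liver set; liver expresses several of this list too, beside a liver set whose summed level differed as given above. The lower members were Pdk4 (-1.08) and the cell cycle inhibitor Cdkn1a (7.55, 6.43 and 6.70). The stress kinase Sgk1 differed by -0.27 and the mTOR inhibitor Ddit4 by 0.22. None of the 8 promoters given for the 9 members past 1.5-fold held the glucocorticoid element searched.

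Cardiac stress genes differed in both directions. Of 16 tested 4 were higher and 2 lower, beside 1.09% and 0.800% of all genes outside the liver set, with a median of 0.00. The 2 natriuretic peptides, hormones that the stretched heart releases to shed salt and water, went opposite ways: Nppa stood at 10.99, 11.19 and 11.72 on Control, Iso and Iso+Insl6 (1.66-fold higher) and Nppb at 10.08, 9.49 and 9.35 (1.66-fold lower). Ankrd1, a titin-bound stress protein, was high on both treated arrays at 11.41, 12.21 and 12.10, as was the LIM protein Fhl1 at 7.82, 8.64 and 8.64. The fourth was Sprr1a, given above. Rcan1, the inhibitor of calcineurin that calcineurin itself induces, stood at 7.79, 7.02 and 6.83, 1.95-fold lower. Skeletal actin Acta1 (0.16) and the fetal myosin Myh7 (-0.08) differed little, and Xirp1 and Xirp2 had the same values on all 3 arrays.

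Lists of muscle machinery, ion channels and beta-adrenergic genes held none past 1.5-fold. Of all genes outside the liver set 1.09% were higher and 0.800% lower, so counts of 0 here say little. Of 20 contractile and calcium handling genes tested 0 passed 1.5-fold, from the junction protein Jph2 (-0.31) to the myosin binding protein Mybpc3 (0.15). The titin cap Tcap, not on that list, was higher at 9.58, 10.32 and 10.35. Among 21 ion channel genes 0 passed, with the pacemaker channel Hcn4 (0.56) and the T-type calcium channel Cacna1h (0.49) furthest up and the potassium channel subunit Kcnv2 (-0.35) furthest down. Among 22 beta-adrenergic and cyclic AMP genes 0 passed: the receptor Adrb1, a target of isoproterenol, differed by -0.15 and the cyclase Adcy6 by 0.53. Of 14 genes known as CREB targets, which cyclic AMP switches on, 2 were higher, Per1 and Pck1, which the clock lists and the liver set also hold. Of all genes tested 1.96% were higher. Immediate early genes had 0 of 18 past 1.5-fold, with Dusp1 (-0.48) lowest and Nr4a3 (0.42) highest.

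A few matrix genes stood higher, from 1.27 for Prg4 downward, while the matrix lists had medians near 0. Matrix is the collagen and protein mesh that fibroblasts lay down when the heart scars. Of 17 collagens 1 was at least 1.5-fold higher, Col14a1 at 5.27, 5.87 and 5.94 on Control, Iso and Iso+Insl6, and the main fibrillar chains stood at 6.90, 7.30 and 7.4 (Col3a1) and 6.90, 7.19 and 7.41 (Col1a2), short of the threshold. Col1a1 stood at 7.07, 7.07 and 7.23. Of 24 other matrix genes 4 passed 1.5-fold, all upward, beside a list median of 0.07. Of all genes outside the liver set 1.09% were higher and 0.800% lower. Prg4, a lubricant that liver also makes, stood at 6.02, 7.10 and 7.29, the fibroblast protein Postn at 7.24, 7.66 and 7.93, the proteoglycan Lum at 6.96, 7.45 and 7.62, and Cilp at 3.91, 4.36 and 4.53. In all 4 Control was lowest and Iso+Insl6 highest, and Cilp, below background on Control, had a bound of 1.29-fold. Elastin, Eln, was listed at 5.92, 5.04 and 5.40 (-0.52), and Fbn1 at -0.48.

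Fibroblast markers had 2 of 14 members higher, Postn and Lum, both already counted with the matrix genes. The list had 10 positive and 2 negative differences and a median of 0.13, and Pdgfra stood at 7.39, 7.34 and 7.39. The shares over all genes outside the liver set were 1.09% higher and 0.800% lower, for this list and those below. Among matrix proteases and inhibitors 1 of 12 passed, Timp3, an inhibitor bound to the matrix, at 8.44, 9.01 and 9.38 (1.92-fold higher). Its relative Timp4 differed by 0.54, the collagenase Mmp14 by -0.34 and Adamts9 by -0.45. Of 21 TGF-beta pathway genes 0 passed, with Tgfb1 at 6.58, 6.55 and 6.67, and of 17 collagen processing genes 0, with the crosslinker Loxl2 (0.47) highest and the hydroxylase P4ha1 (-0.36) lowest.

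Among genes of vessels and oxygen sensing a few stood lower and most did not pass 1.5-fold. Of 22 angiogenesis and hypoxia genes tested 3 were at least 1.5-fold lower and none higher, beside 0.800% and 1.09% of all genes outside the liver set, with 16 negative and 3 positive differences and a median of -0.09. Egln3, a hydroxylase that marks hypoxia factors for destruction, stood at 9.15, 8.38 and 7.85 on Control, Iso and Iso+Insl6 (2.46-fold lower). Apln, a peptide of endothelium that strengthens the heartbeat, stood at 5.45, 4.60 and 4.25 (2.30-fold lower). Kdr, the main VEGF receptor, stood at 9.51, 8.90 and 8.69 (1.77-fold lower). In all 3 Control was highest and Iso+Insl6 lowest. The ligand Vegfa differed by -0.48. Among 13 endothelial markers Kdr alone passed, Cldn5 differed by -0.38 and Vwf by 0.26, and the list's median was -0.02. Meox1 (-0.93), the intermediate filament Nes (-0.74), Bcl6b (-0.66) and the cadherin Pcdh12 (-0.59), which endothelium also expresses, were lower. Ly6c1 (1.19) and the transporter Abcg2 (0.72), which endothelium expresses too, were higher. All of these were picked after their values were seen and give no direction for endothelium.

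Fuel switches differed more than the enzymes that burn fuel. Pdk4, the kinase that keeps pyruvate out of the mitochondrion, stood at 9.57, 8.36 and 8.49 on Control, Iso and Iso+Insl6 (2.11-fold lower). Angptl4, which holds back lipoprotein lipase, stood at 5.0, 3.82 and 4.19 (1.75-fold lower), and the mitochondrial carrier Ucp3 at 6.08, 5.25 and 5.46 (1.54-fold lower). Control was the high array in all 3. Of 27 fatty acid oxidation genes 0 passed, 15 were lower and 4 higher by any amount, and the median was -0.05, with Acot1 (-0.35) and Mlycd (-0.32) lowest. The numbers past 1.5-fold were likewise 0 of 16 in the TCA cycle, 0 of 26 in oxidative phosphorylation and 0 of 20 in glycolysis. Outside the liver set 1.09% of all genes were higher and 0.800% lower, so these counts of 0 say little. In insulin and IGF signalling 1 of 17 passed, the receptor substrate Irs1 at 6.98, 6.11 and 6.33. It was lower, beside 0.800% of all genes outside the liver set.

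**Figure D4:**
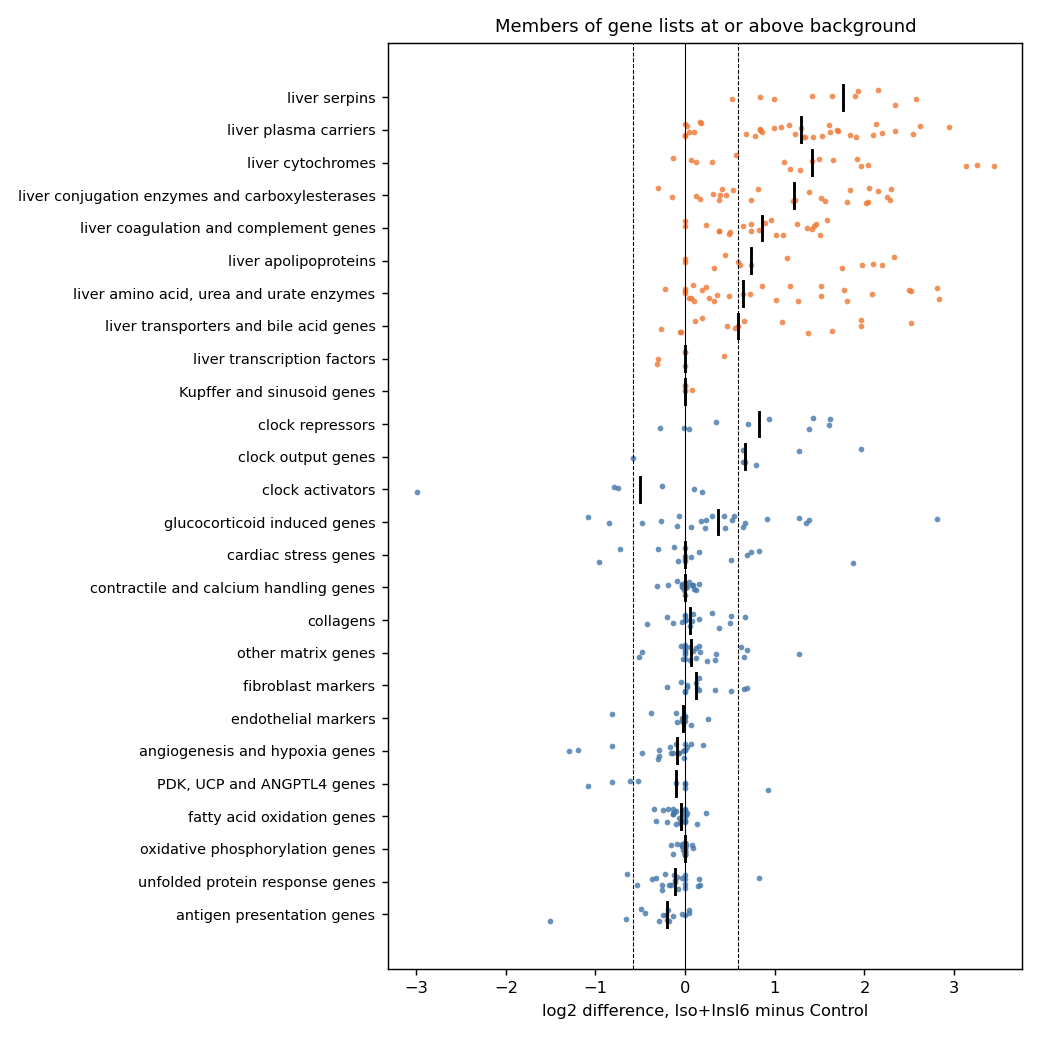
Each point is the log2 difference (Iso+Insl6 minus Control, x axis) of 1 gene at or above background, in 26 of the gene lists; black bars are list medians and dashed lines mark 1.5-fold. The 10 lists of liver genes are orange, and the top 8 have medians from 0.59 to 1.77. Of the 167 genes in these 8, 60 passed the filter only through the Iso+Insl6 array and so had to stand higher there. Clock repressors and output genes have medians of 0.82 and 0.67, and contractile and respiratory genes sit close to 0.

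Among protein folding genes 3 passed 1.5-fold by listed values, Manf and Hspa1a downward and Herpud1 upward. Outside the liver set 1.09% of all genes were higher and 0.800% lower, for these and the other lists here. Of 23 unfolded protein response genes 1 was lower and 1 higher, with 15 negative, 4 positive and 4 zero differences and a median of -0.11. Manf, a secreted stress factor of the endoplasmic reticulum, was 1.57-fold lower at 6.14, 5.49 and 5.49 on Control, Iso and Iso+Insl6, and the chaperone Hspa5 stood at 10.33, 9.84 and 9.79, short of the threshold. Herpud1, which helps to clear misfolded proteins, was 1.77-fold higher at 8.90, 9.28 and 9.72. Of 22 heat shock genes 1 passed, Hspa1a, given above, though its bound against background was 1.47-fold. Its close relative Hspa1b went the other way, at 4.04, 4.04 and 4.35, the highest difference of the list (0.31). In the ATF4 list 1 of 16 passed, the transcription factor Cebpb (0.69). Of 20 metallothionein and NRF2 genes 2 passed, Mt2 and Gsta3, while Nqo1 (0.10) and Hmox1 (0.09) differed little. The atrophy ligases Trim63 (0.41) and Fbxo32 (0.36) did not pass, nor did any of the 12 genes of that list. Of 14 cell cycle genes 1 was lower, Mki67 at 5.30, 4.73 and 4.60, and Ccna2 (-0.58) was just short of the threshold. The p53 list had Cdkn1a lower among 14.

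Immune and acute phase genes differed in both directions, and few passed 1.5-fold, beside 1.09% higher and 0.800% lower of all genes outside the liver set. Of 15 antigen presentation genes 2 were lower, H2-Q7 and the class II chain H2-Aa (7.15, 6.4 and 6.49 on Control, Iso and Iso+Insl6), and 12 of the 15 differences were negative, with a median of -0.20. Their class II companions H2-Ab1 (-0.49) and Cd74 (-0.45) did not pass. H2-Q10, a class I gene of liver that the list does not hold, was higher at 4.79, 3.99 and 6.06; it was named after its values were seen. Of 20 interferon response genes 1 was lower, Ifi44 (-0.71). Of 18 complement genes 1 was lower, the regulator Cd55 (5.81, 5.68 and 5.13), and C3 stood at 8.44, 8.12 and 8.97. Of 13 cytokines and chemokines 1 was higher, Il33, an alarm cytokine of stromal cells, at 4.27, 4.93 and 5.23, while Ccl2 differed by -0.54. The acute phase genes outside the liver set had 2 of 11 higher, Serpina3n and Cebpb, and Lcn2 differed by 0.45.

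Markers of other cell types were mostly level. The shares over all genes tested, beside which the counts here stand, were 1.96% higher and 0.789% lower. Macrophage markers were above background in 14 of 14, and only galectin Lgals3 passed, at 5.58, 6.29 and 6.45 on Control, Iso and Iso+Insl6, while Adgre1 stood at 4.93 on all 3 arrays. Of 12 smooth muscle and pericyte markers 0 passed. Neutrophil markers were at or above background in 0 of 12, T and NK cell markers in 1 of 14, B cell markers in 2 of 10, mast cell markers in 2 of 8, mesothelial markers in 3 of 9 and skeletal muscle markers in 3 of 11, with none past 1.5-fold, so these lists say little about those cells. Of 7 fat cell markers tested 3 were higher, the desaturase Scd1 (1.34), the lipid droplet protein Cidea (1.07) and Pck1 (1.80). The others tested differed little: Plin4 (0.13), Pparg (0.10), Fabp4 (-0.04) and Lipe (-0.13). The defining markers Adipoq, Lep and Plin1 lay below background on every array. Pck1 belongs to the liver set, and Scd1 is also made in liver. Among lung markers Scgb1a1 alone passed, Sftpc differed by -0.42, and 4 of 10 lay above background on Control against 2 on Iso+Insl6. The kidney gene Kap stood at 6.05, 4.67 and 6.36. Of 3 pancreas, 3 erythroid and 2 kidney genes tested 0 passed. Of 3 Schwann cell and neuronal markers the adhesion molecule Ncam1 (0.59) passed. Among 6 atrial and conduction markers Nppa alone did.

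Relaxin family genes, the family of the infused peptide, all lay below background, so none was tested. Insl6 itself was listed at 1.89 on every array, the relaxin receptor Rxfp1 at 1.93 and Rxfp2 at 1.64. Insl5 was listed at 3.11, 3.25 and 2.90, and Rln1, Rln3, Rxfp3 and Rxfp4 had equal values on Control and Iso+Insl6. Of 13 renin-angiotensin and endothelin genes 0 passed, with Agt (0.56) and the converting enzyme Ace (0.51) furthest up. The shares of all genes outside the liver set were 1.09% higher and 0.800% lower.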

How the data were processed

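Left ventricle RNA of the groups Control, Iso and Iso+Insl6 was hybridised to 1 array each. The values that the authors deposited are on a log2 scale, 1 for every probe set. The submitters' processing notes name RMA and affy 1.36.1; settings, chip definition, genome build and array date are not given in the sources used here. The values carry 2 decimals, have a median of 4.16 on each array and, once sorted, lie within 0.14 of each other rank by rank, so no further scaling was applied. All 3 columns were matched by label and 0 were left over.

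Each probe set carries an Entrez gene number, which gave a symbol to 23740 of 25206 through RefSeq's table (GRCm38.p6); 23185 platform symbols were all equal to it. The background of 4.16 is the median of all values. Python 3.11.15 with pandas 2.3.3 took differences and counts, and limma 3.58.1 in R 4.3.3 the quantile and cyclic loess alternatives. The counting step was tested on simulated data.

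The 65 gene lists (1233 of 1268 entries measured, 1172 different genes), the liver set and the members were chosen with earlier results of these data known. The rule for named genes was the 15 largest differences each way outside the liver set, the 12 largest each way inside it, any list member past 1.5-fold and up to 4 others a list, all clock and relaxin family genes, and some stress and matrix genes listed by name. Some genes that the rule takes are given by count only or are not reported here. Small RNAs, predicted genes, receptors of smell and antigen receptor segments were given no name in the text; 11 of them were higher and 29 lower outside the liver set. Promoters came from RefSeq, 250 bases before each start. Coordinates are RefSeq's and may not be of the build behind the probe sets.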

Additional observations from a re-analysis of the deposited data

How the results depend on the processing

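Precision is limited by having 1 array per group, and no setting below replaces replicates. Against 244 higher and 98 lower genes in all, 133 and 98 outside the liver set and 111 and 0 inside it, a 2-fold threshold left 125 and 27 in all, 38 and 27 outside the set and 87 and 0 inside it. Among all genes past 1.5-fold, with no filter on level, 227 were lower, 218 were higher and 226 lower outside the set, and 1 was lower inside it. Asking for background on both arrays left 65 lower genes in all, 65 lower outside the set and 61 higher inside it. The other counts under these settings, and those under a level filter set by the silent receptor families, quantile normalization, cyclic loess, centring on genes above background and a wider liver set, stayed within 1.5 times, as did the counts with liver genes noticed in the ranking moved into the set, an alternative chosen after seeing the data. Cyclic loess left the differences as they were to 3 decimals, and quantile normalization moved none by more than 0.103. No difference past 1.5-fold of a ranked or clock gene changed sign. Counts by list, taken for each direction and setting, moved past 1.5 times or to or from 0 in 53 cases. In 967 they did not, and many of those were 0 throughout. At 2-fold 30 list counts moved and 100 did not, and with background on both arrays 8 moved and 122 did not. No paired analysis was possible because each group has 1 array.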

Other observations

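Differences past 1.5-fold outside the liver set were not limited to low levels. By the level of the higher array, 57 of 2748 genes below 5 (2.07%) passed in either direction, 71 of 3237 between 5 and 6 (2.19%), 73 of 4855 between 6 and 8 (1.5%) and 30 of 1413 (2.12%) at 8 or more. In the first of these bands 24 were higher and 33 lower, and in the last 20 were higher and 10 lower. Of 1408 olfactory, vomeronasal and keratin-associated genes, families little used in heart, 46 passed at any level (3.27%), and of the 47 at or above background on the Iso array, which is not compared, 4 did (8.51%). Of the 133 genes higher outside the liver set, 24 lay below background on Control, and 12 of these had a bound under 1.5-fold. Of the 98 lower ones 33 lay below it on Iso+Insl6, and 28 of these had such a bound. Of the 111 higher genes of the liver set 50 lay below background on Control, 15 of them with a bound under 1.5-fold.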
